A study of Mus musculus with 4 samples.

Results

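The 40 genes described here drive or mark progress through the cell cycle. They were taken by symbol: an Ensembl identifier belonged to the set when GENCODE release M21 gave it a member's name, and all 40 were found among the 37315 identifiers counted. They comprise 13 cyclins, cyclin-dependent kinases (CDKs) and E2f1, 14 genes of DNA replication, and 13 genes of mitosis. The data are RNA-seq read counts from liver of mice with a knockout of Fto (KO, 2 libraries) and of wild-type mice (WT, 2 libraries), all C57BL/6 and 23 weeks old. Fto encodes an oxygenase that takes methyl groups off RNA. The labels name no allele, sex or driver of the knockout, and do not say whether the libraries of a genotype came from separate animals. P-values therefore measure the spread between libraries, which may be technical.

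Cells enter the cycle when D-type cyclins, with Cdk4 or Cdk6, and E-type cyclins, with Cdk2, release E2F factors from the retinoblastoma family of repressors. E2F1 then switches on the replication genes, while the A and B cyclins, Cdk1 and the mitotic genes are transcribed later, through the MuvB complex with B-MYB and FOXM1. Most hepatocytes of an adult liver are out of the cycle. Mitotic transcripts are scarce in such tissue, whereas several D cyclins, kinases and nucleotide enzymes are also made by resting cells.

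The libraries held between 40947808 and 44689114 counts in KO and between 39549592 and 41332870 in WT. Fto itself was at 13.1 and 12.1 CPM (read counts over the library total after scaling by the trimmed mean of M-values, TMM) in KO and 41.2 and 33.9 CPM in WT. Hepatocyte markers summed to 78882.5 and 89382.5 CPM in KO and 70238.7 and 81420.9 CPM in WT. The libraries numbered 2 held less of long transcripts than those numbered 1 in both genotypes. Among tested coding genes with a longest transcript above 8000 bases (n = 714), replicate 2 lay below replicate 1 by a median of -0.46 on the log2 scale in KO and -0.49 in WT. The median KO over WT log2 fold change of these long genes was 0.11.

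The proliferation marker Mki67 fell in KO liver to 25.3% of the WT level and was the only member called. The other mitosis genes, the A and B cyclins and Cdk1 mostly had lower values in KO, none past the threshold. The G1 cyclins and kinases and the replication genes differed in both directions, and the lowest fitted value of any member was that of the replication gene Gins2 (log2 fold change -2.19), which was not called. The 13 mitosis genes summed to 5.78 and 5.40 CPM in KO and 8.98 and 10.9 CPM in WT. The 14 replication genes summed to 96.6 and 96.5 CPM in KO, against 96.6 and 103.5 CPM in WT. Tk1, Pcna and Mcm7 weighed most in these sums, with 24.2, 18.9 and 15.4 CPM in KO replicate 1, so scarcer replication genes hardly show in them. For the 13 cyclins, kinases and E2f1 the sums were 101.5 and 101.6 CPM in KO and 94.3 and 93.4 CPM in WT. Of these, Cdk4 made up 34.3 and 40.7 CPM in KO and 27.4 and 28.9 CPM in WT. Without Cdk4 the sums overlapped between genotypes. In whole tissue, fewer cycling cells and less of these RNAs per cell cannot be told apart.

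In the test across all genes (edgeR quasi-likelihood, adjusted p under 0.05), 1 of the 35 members with enough reads to test was called, against 1.91% of the 13836 genes tested. An unadjusted p under 0.05 with a lower KO level was found for 6 members, 2 in each role, against 6.48% of tested genes, and no member had one with a higher level. These 6 were Ccna2, Cdk1, Mcm5, Gins2, Mki67 and Top2a. The filter on low counts left out Ccnb1, Cdc6, Aurkb, Bub1 and Foxm1. Of the 35, Ccnb2, Gins2, Bub1b, Plk1 and Cdc20 passed it through the WT libraries alone, and none through the KO libraries alone. Counts over the tested members are therefore a description only.

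With no filter every member has a fitted value. The median log2 fold change was then -0.80 over the 13 mitosis genes, -0.31 over the 13 cyclins, kinases and E2f1, and -0.23 over the 14 replication genes, beside -0.01 over the 22419 genes with a read. Negative values were found for 12 of 13, 8 of 13 and 9 of 14 genes, and for 11456 of those 22419. The 12 mitosis genes include Bub1, which had the same reads in both genotypes and whose sign (-0.08) comes from the scaling. Both KO libraries were below both WT libraries for 8 mitosis genes, 6 cyclins or kinases and 6 replication genes. These make 20 of the 40 members, against 17.5% of genes with a read. Among tested genes the figures were 17 members against 20.4%. The count of 20 became 18 with library size alone and 21 with DESeq2 size factors. For some members this order rests on the scaling. The nearest KO and WT libraries held 17 reads each for Bub1b and 8 reads each for Foxm1. They held 24 reads in KO and 23 in WT for Kif20a, and 33 in KO and 32 in WT for Ccne2. The opposite order, both KO libraries higher, held for Cdk4, Cdt1 and Pcna, against 21.6% of tested genes; for Pcna the nearest KO and WT libraries, 18.8 CPM each, barely differed.

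**Figure D1:**
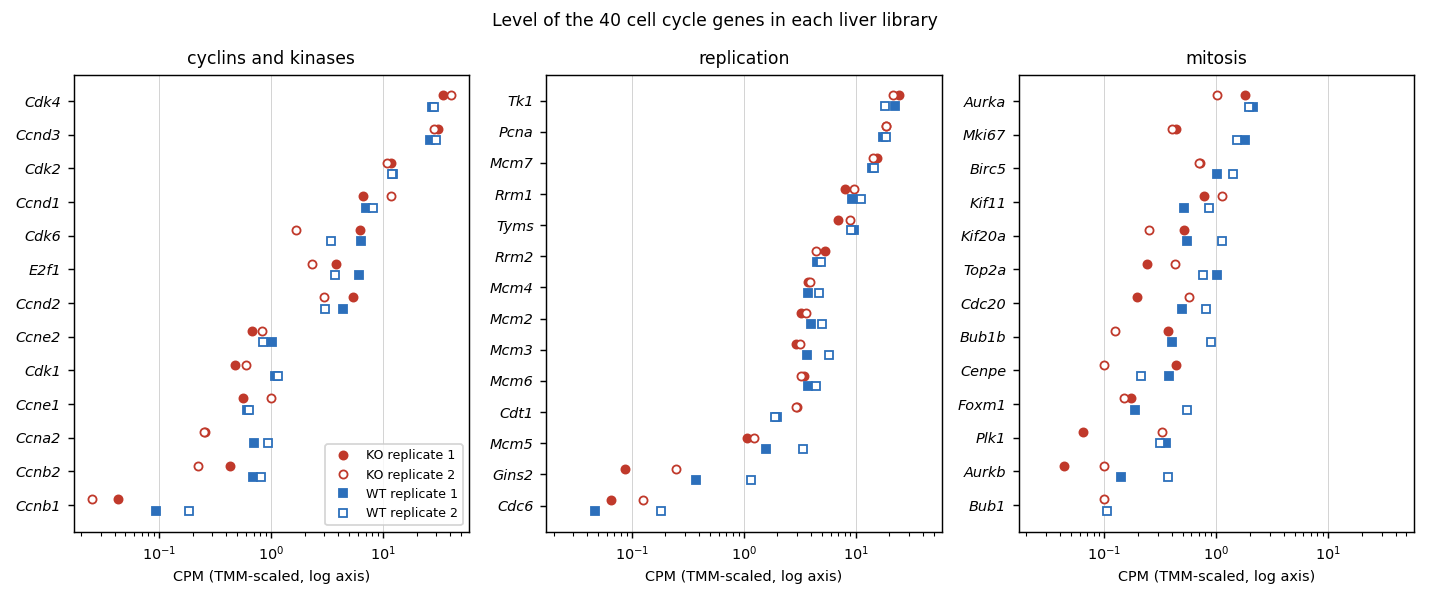
CPM of each member in each library on a log axis, by role (filled, replicate 1; open, replicate 2; circles, KO; squares, WT); Bub1 had no read in replicate 1 of either genotype and these points are not drawn. For Mki67, Ccna2 and Cdk1 the KO circles lie left of the WT squares, while for Ccnd3, Pcna, Tk1 and Mcm7 the genotypes lie close together.

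Mki67 (ENSMUSG00000031004, chr7:135689784-135716361 of mm10, minus strand) encodes Ki-67, a protein that coats mitotic chromosomes and is absent from resting cells. It had 0.433 and 0.400 CPM in KO (20 and 16 reads) and 1.79 and 1.52 CPM in WT (76 and 58 reads). The groups did not overlap, and the libraries of each genotype lay close together. Mki67 fell to 0.416 ± 0.0232 CPM in KO, against 1.66 ± 0.190 CPM in WT (SD, n = 2 each). This is a log2 fold change of -1.99 with an SE of 0.380 and an adjusted p of 0.0478 (edgeR). Its longest transcript has 10061 bases, and whether length bears on its value was not tested. The call was lost with library size alone as the scaling (adjusted p = 0.0807) and with limma-voom (0.0626). With each library left out in turn, the log2 fold change ran from -2.11 to -1.86.

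Top2a, the topoisomerase that untangles sister chromatids, had 0.238 and 0.425 CPM in KO and 1.01 and 0.762 CPM in WT. The order of the genotypes was the same as for Mki67, but Top2a was not called (log2 fold change -1.43, SE 0.494, adjusted p = 0.262). Birc5, which encodes survivin of the chromosomal passenger complex, had 0.714 and 0.700 CPM in KO and 1.01 and 1.42 CPM in WT (log2 fold change -0.78, adjusted p = 0.466). The mitotic kinase gene Aurka had the highest level of the role, also per length of transcript, with 1.82 and 1.02 CPM in KO and 2.15 and 1.94 CPM in WT (log2 fold change -0.52, adjusted p = 0.628). In both genes every KO library was below every WT library, with the Aurka difference set largely by KO replicate 2. The checkpoint kinase gene Bub1b had 0.368 and 0.125 CPM in KO and 0.401 and 0.893 CPM in WT. Its KO replicate 1 was close to WT replicate 1, and the adjusted p was 0.464.

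Kif20a, a kinesin of cytokinesis, had 24 and 10 reads in KO and 23 and 43 in WT, with a log2 fold change of -1.09. The mitotic exit activator Cdc20 (-0.78) and the Polo kinase gene Plk1 (-0.81) overlapped between genotypes, as did Cenpe (-0.12), a kinesin of the kinetochore. Single KO libraries moved these values: without KO replicate 1 the log2 fold change was -0.18 for Cdc20 and -0.04 for Plk1, and without KO replicate 2 it was -1.74 for Cdc20 and -2.32 for Plk1. With each library left out in turn, the log2 fold change ran from -0.99 to -0.18 for Aurka, from -2.33 to -0.69 for Bub1b and from -1.72 to -0.49 for Kif20a. Aurkb, the catalytic subunit beside survivin, had 2 and 4 reads in KO and 6 and 14 in WT. Foxm1 had 8 and 6 reads in KO and 8 and 21 in WT. Bub1, a kinetochore kinase gene, had 0 and 4 reads in each genotype, and a library without a read allows up to 3 counts, or 0.0649 to 0.0788 CPM. Kif11, the spindle motor Eg5, went the other way, with 0.779 and 1.12 CPM in KO and 0.519 and 0.867 CPM in WT. Its groups overlapped and its log2 fold change of 0.46 had an SE of 0.450.

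The A and B cyclins and Cdk1, a subset named after its values were seen, were each lower in both KO libraries than in either WT library. Their 4 genes summed to 1.21 and 1.10 CPM in KO, against 2.57 and 3.10 CPM in WT. Ccna2, the cyclin of S and G2 phase, had 0.260 and 0.250 CPM in KO (12 and 10 reads) and 0.707 and 0.946 CPM in WT (30 and 36 reads). The log2 fold change was -1.68 (SE 0.479, adjusted p = 0.163). Cdk1, the kinase that starts mitosis, had 0.476 and 0.5997 CPM in KO and 1.08 and 1.16 CPM in WT, which did not overlap. It was not called either (log2 fold change -1.06, adjusted p = 0.313). For its partner Ccnb2 the levels were 0.433 and 0.225 CPM in KO and 0.684 and 0.814 CPM in WT (log2 fold change -1.17, adjusted p = 0.389). Ccnb1 had 2 and 1 reads in KO and 4 and 7 in WT and could not be tested. None of the 4 passed the threshold.

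The other 9 genes of that role act in G1 or at entry into S phase, and they carried nearly all of its reads. They summed to 100.3 and 100.5 CPM in KO and 91.7 and 90.3 CPM in WT, but without Cdk4 these sums overlapped between genotypes. Cdk4, which pairs with the D cyclins, had 34.3 and 40.7 CPM in KO and 27.4 and 28.9 CPM in WT. Both KO libraries were higher, yet Cdk4 was not called (log2 fold change 0.42, SE 0.185, adjusted p = 0.404). Among the D cyclins, Ccnd3 was the most abundant, with 30.9 and 28.4 CPM in KO and 26.4 and 29.5 CPM in WT. Ccnd1, the D cyclin that hepatocytes raise during regeneration, had 6.60 and 11.7 CPM in KO and 7.05 and 8.20 CPM in WT. Both overlapped between genotypes, with log2 fold changes of 0.09 and 0.26; that of Ccnd1 was -0.22 without KO replicate 2.

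Cdk2, the partner of the E cyclins, had 11.8 and 10.9 CPM in KO and 12.3 and 11.98 CPM in WT, a log2 fold change of -0.10 (SE 0.186). The E cyclins themselves were near 1 CPM or below. Ccne1 had a log2 fold change of 0.32 and Ccne2 one of -0.31, each within its SE. E2f1 had 3.79 and 2.32 CPM in KO and 6.18 and 3.76 CPM in WT, which overlapped. It was lower in replicate 2 than in replicate 1 of both genotypes, and the KO over WT log2 ratio was -0.71 in replicate 1 and -0.69 in replicate 2 (adjusted p = 0.458 in the fit over all libraries). Cdk6, whose longest transcript has 11525 bases, showed a similar gap between numbers, with 6.21 and 1.67 CPM in KO and 6.34 and 3.47 CPM in WT. KO replicate 2 set its value: the log2 fold change was -0.31 (adjusted p = 0.898), but -1.55 without KO replicate 1 and 0.33 without KO replicate 2. Ccnd2 (0.17) overlapped between genotypes.

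**Figure D2:**
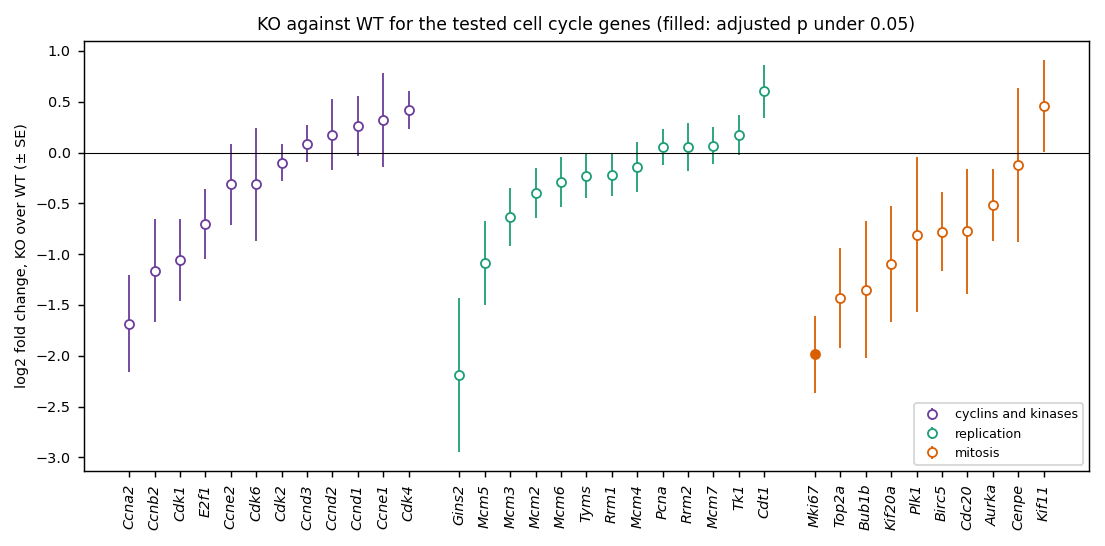
Log2 fold change of KO over WT with its SE for the 35 tested members, by role; the filled point passed an adjusted p of 0.05. Mki67 at -1.99 is the filled point, and the mitosis genes except Kif11 lie below 0, while the cyclins and replication genes spread to both sides.

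Replication genes were described by function. The MCM2-7 helicase, which is loaded on origins before S phase and unwinds DNA, summed to 29.9 and 29.5 CPM in KO and 30.8 and 37.8 CPM in WT over its 6 subunits. Mcm2, Mcm3, Mcm5 and Mcm6 were lower in both KO libraries than in either WT library, and Mcm4 and Mcm7 overlapped. Mcm5 had 1.08 and 1.25 CPM in KO and 1.58 and 3.39 CPM in WT. Its log2 fold change of -1.09 was not called (SE 0.410, adjusted p = 0.310) and rested on WT replicate 2: it was -1.54 without WT replicate 1 and -0.45 without WT replicate 2. Mcm3 had 2.92 and 3.17 CPM in KO and 3.70 and 5.78 CPM in WT (log2 fold change -0.64, adjusted p = 0.413). Mcm7, the most abundant subunit, had 15.4 and 14.3 CPM in KO and 13.9 and 14.5 CPM in WT. Its log2 fold change was 0.06 (SE 0.181).

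Gins2 encodes a subunit of the GINS complex, which joins the helicase when origins fire. It had 4 and 10 reads in KO and 16 and 44 in WT, or 0.0865 and 0.250 CPM in KO and 0.377 and 1.16 CPM in WT. Replicate 2 was higher than replicate 1 in both genotypes, by 1.53 on the log2 scale in KO and 1.62 in WT. The log2 fold change of -2.19 (SE 0.757) was not called (adjusted p = 0.262), but was with no filter on low counts (0.0222). Without WT replicate 2 the log2 fold change was -1.18, and across the libraries left out it ran from -3.10 to -1.18. The licensing factor gene Cdt1 had 2.98 and 2.95 CPM in KO and 1.98 and 1.92 CPM in WT. Its libraries agreed closely within each genotype, and the gene was not called (log2 fold change 0.60, SE 0.261, adjusted p = 0.385). Cdc6, which loads the helicase together with Cdt1, had 3 and 5 reads in KO and 2 and 7 in WT.

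Genes that supply nucleotides or serve DNA synthesis at large showed small differences. Pcna, the sliding clamp of DNA polymerases, had 18.9 and 18.8 CPM in KO and 17.5 and 18.8 CPM in WT (log2 fold change 0.06, SE 0.178). Tk1, thymidine kinase, had 24.2 and 21.8 CPM in KO and 22.4 and 18.4 CPM in WT (0.17, SE 0.193). Rrm1, the large subunit of ribonucleotide reductase, had 8.07 and 9.62 CPM in KO and 9.39 and 11.2 CPM in WT (-0.22, SE 0.211). In each of the 3 the difference was smaller than the spread between libraries or close to it. The small reductase subunit Rrm2 (0.06) and thymidylate synthase, Tyms (-0.23), also stayed near their SE.

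Set per kilobase of the longest annotated transcript (RPKM), the members spanned a wide range. Cdk4 had the highest level, 18.3 RPKM in KO and 13.7 RPKM in WT, followed by Pcna with 12.4 RPKM in KO and 11.9 RPKM in WT. Tk1 and Ccnd3 came next, with 9.24 and 7.69 RPKM in KO and 8.20 and 7.25 RPKM in WT. Mki67 was at 0.0414 RPKM in KO and 0.165 RPKM in WT, and Ccnb1 at 0.0137 RPKM in KO and 0.0559 RPKM in WT. In read depth, not scaled by length, the median gene had 0.520 CPM among the mitosis genes, 4.004 CPM among replication genes and 3.96 CPM among the cyclins, kinases and E2f1, against 1.24 CPM over the genes with a read.

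**Figure D3:**
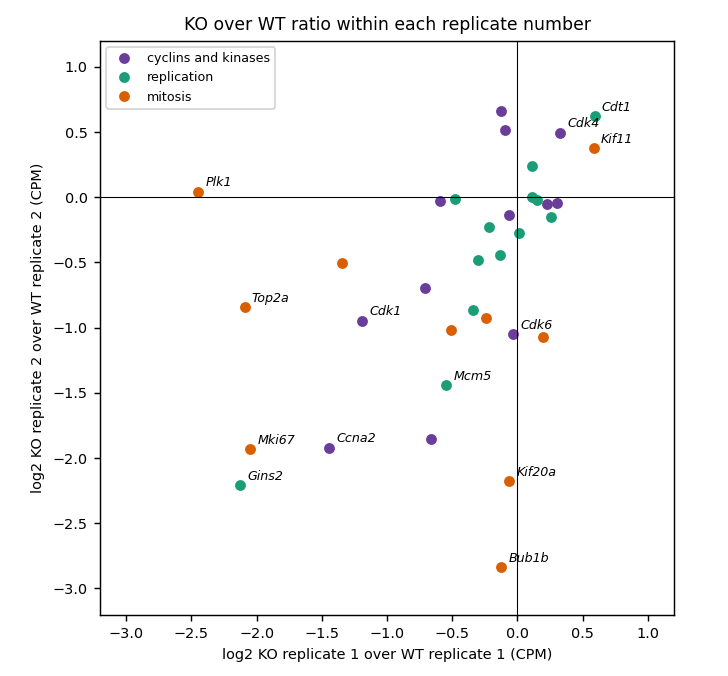
Log2 KO over WT ratio of CPM in the replicate 1 libraries (x axis) and in the replicate 2 libraries (y axis) for the tested members, coloured by role. Mki67, Gins2 and Ccna2 lie far below 0 on both axes, whereas Plk1 is low on the x axis alone and Bub1b and Kif20a on the y axis alone.

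Within replicate number 1 the log2 ratio of Mki67 was -2.05 and within number 2 it was -1.93. The corresponding pair was -2.12 and -2.21 for Gins2, -1.45 and -1.92 for Ccna2, -1.19 and -0.95 for Cdk1, and -2.09 and -0.84 for Top2a. All 5 were low within both numbers. Plk1, with -2.45 and 0.04, and Bub1b, with -0.12 and -2.84, were low within a single number. With 1 KO and 1 WT library under each number, these ratios carry no test.

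The genes named next lie outside the 40 and come from lists of 114 further genes. These cover CDK inhibitors, E2F and related factors, replication, mitosis, and other cyclins and kinases. Of the 100 tested, 1 was called higher and 1 lower in KO, close to the 1.91% called among all tested genes. The filter was passed by 6 of the 100 through the WT libraries alone and by 1 through the KO libraries alone. The lower gene was Cdkn1a, which encodes the CDK inhibitor p21, with 0.995 and 1.12 CPM in KO and 10.3 and 13.5 CPM in WT (log2 fold change -3.49, SE 0.268, adjusted p = 0.00135). Of the other 5 inhibitors tested, Cdkn2c, which blocks Cdk4 and Cdk6, had 3.76 and 4.65 CPM in KO and 1.77 and 2.63 CPM in WT. It was not called (log2 fold change 0.94, adjusted p = 0.214). Cdkn1b (0.13) and Cdkn1c (-0.39) were not called either.

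The gene called higher was E2f8 (ENSMUSG00000046179, chr7:48866429-48881596, minus strand), an atypical E2F that represses E2F targets. It had 14.7 and 11.6 CPM in KO and 5.02 and 3.68 CPM in WT, without overlap (log2 fold change 1.59, SE 0.246, adjusted p = 0.0227). With library size alone the call was lost (adjusted p = 0.0599). The noncoding gene Gm2788 overlaps E2f8 on the other strand and also rose, to 27.4 and 44.7 CPM in KO against 9.31 and 12.1 CPM in WT (log2 fold change 1.75, adjusted p = 0.0239). The library kit does not mark strand, so reads of the pair cannot be assigned with certainty. E2f7, the close relative of E2f8, had 1.51 and 0.450 CPM in KO and 0.354 and 0.342 CPM in WT. KO replicate 1 stood apart, and the gene was not called (adjusted p = 0.366; 0.0272 without KO replicate 2). E2f3, an activator of the family, had 4.02 and 3.80 CPM in KO and 7.69 and 7.28 CPM in WT. Its log2 fold change of -0.94 missed the threshold (adjusted p = 0.0869) and passed with DESeq2 (0.0337) and with no filter (0.0185). E2f6, a repressor, had 19.96 and 17.9 CPM in KO and 12.1 and 14.0 CPM in WT (0.53, adjusted p = 0.280).

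No further replication or mitosis gene was called among the 31 and 32 tested. Cdc45, which forms the active helicase with MCM2-7 and GINS, had 0.541 and 0.775 CPM in KO and 1.58 and 2.47 CPM in WT. Its log2 fold change of -1.62 was not called (SE 0.394, adjusted p = 0.101), but was with no filter (0.00377) and with DESeq2 (0.0345). With each library left out in turn it ran from -1.91 to -1.27. The chromatin assembly gene Chaf1a (-1.10) and the polymerase gene Pole (-0.83) were each lower in both KO libraries and not called. Among mitosis genes the smallest p-values belonged to Racgap1 (-1.84), a regulator of cytokinesis, Kif2c (-2.29), a microtubule depolymerase, Cenpf (-1.75), a kinetochore protein, and the phosphatase gene Cdc25a (0.81). Their adjusted p ran from 0.192 to 0.235, and Racgap1, Kif2c and Cenpf passed the filter through the WT libraries alone. Of the 14 other cyclins and kinases, Ccng1, a cyclin that p53 induces, had 23.3 and 28.6 CPM in KO and 47.9 and 50.3 CPM in WT. It missed the threshold (log2 fold change -0.92, adjusted p = 0.0612) and passed with no filter (0.00143) and with DESeq2 (0.00389). With each library left out in turn, its log2 fold change ran from -1.09 to -0.78. Ccni (-0.47), Ccnc (0.20) and Ccnl1 (-0.20) were not called.

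**Figure D4:**
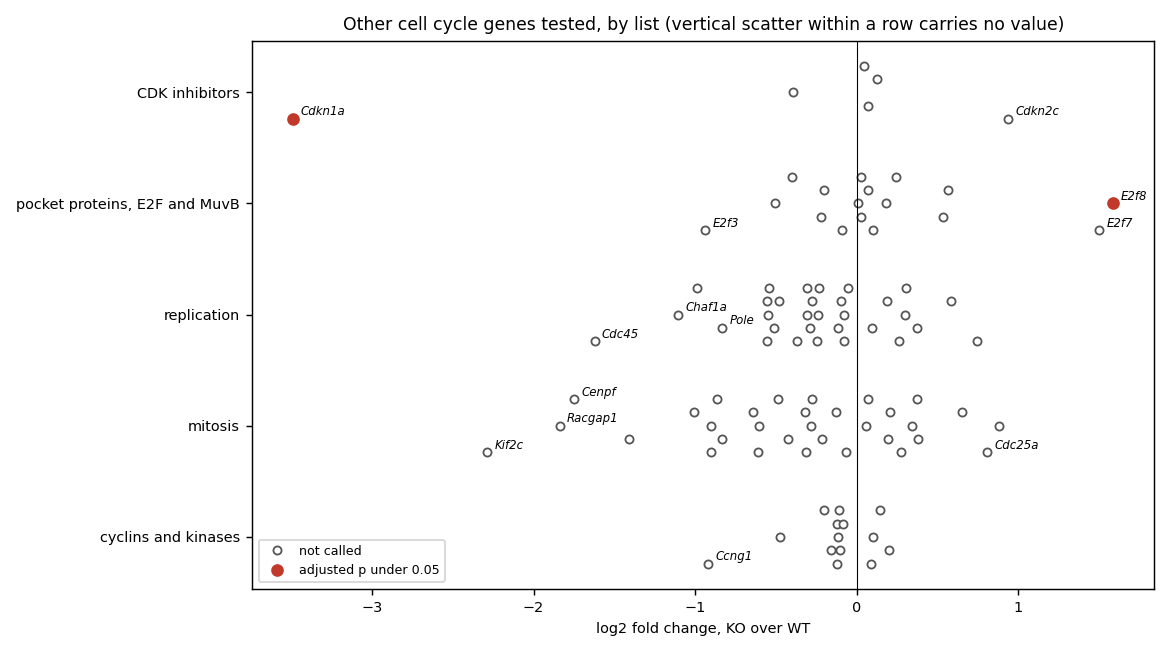
Log2 fold change of KO over WT for the 100 other cell cycle genes tested, in 5 lists; filled points passed an adjusted p of 0.05. Cdkn1a at -3.49 and E2f8 at 1.59 are the filled points. Among the open ones Kif2c, Racgap1, Cenpf and Cdc45 lie lowest. The first 3 of these passed the low-count filter through the WT libraries alone.

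Blood cells also express cycle genes, so markers of other cells were summed in each library. The 7 erythroid markers summed to 186.8 and 206.8 CPM in KO and 274.04 and 309.9 CPM in WT, mostly Alas2. Alas2 and the globin genes Hbb-bs, Hbb-bt, Hba-a1 and Hba-a2 were each lower in both KO libraries and not called. The globin log2 fold changes ran from -0.94 to -0.71 (adjusted p from 0.0890 to 0.115). Klf1, an erythroid transcription factor, was the 1 of 6 tested that was called (lower, with 31 and 51 reads in KO and 172 and 189 in WT; adjusted p = 0.0259). The 6 B and plasma cell markers summed to 12.4 and 20.2 CPM in KO and 25.8 and 49.5 CPM in WT, mostly Ighm, with no call among 5 tested. Without Ighm the other 5 summed to 1.97 and 3.60 CPM in KO and 2.41 and 4.31 CPM in WT, which overlapped. The 7 T cell markers summed to 2.14 and 2.90 CPM in KO and 2.52 and 1.79 CPM in WT. Of these, Cd4 made up 1.10 and 1.40 CPM in KO and 0.849 and 0.263 CPM in WT. Without Cd4 the sum was lower in both KO libraries, but KO replicate 2 and WT replicate 2 barely differed. The 10 Kupffer cell markers went the other way, with 345.6 and 372.04 CPM in KO and 159.7 and 238.9 CPM in WT, and 2 were called higher. The erythroid sum and Ighm were thus lower in both KO libraries, as was the sum of the mitosis genes. The B and plasma cell markers other than Ighm overlapped between genotypes. The part of these cells in the result was not tested. Neutrophil markers summed to 1.58 and 1.22 CPM in KO and 0.590 and 0.893 CPM in WT, with Ly6g at 0 in all. Natural killer markers summed to 0.671 and 0.650 CPM in KO and 0.259 and 0.631 CPM in WT. Both sums were higher in both KO libraries, at few reads. The natural killer order rested on Nkg7, with 0.346 and 0.325 CPM in KO and 0.0707 and 0.0788 CPM in WT. Without Nkg7 the sum overlapped between genotypes, and Prf1 was lower in both KO libraries. The neutrophil sum was mostly S100a8 and S100a9, while Elane was lower in both KO libraries.

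Promoter sequence is shown for the members with an unadjusted p under 0.05 for which the RefSeq table (GRCm38.p6) held a window, and for E2f8. Motifs of 3 kinds were searched on both strands of windows that run from 250 bases before to 50 bases after the annotated start: the cell cycle homology region TTTGAA, which MuvB binds, the E2F sites TTTCGCGC and TTTGGCGC, and the CCAAT box. The table held 31 of the 40 members, without Ccnd1, Ccnd2, Ccne2, Ccna2, Mcm4, Gins2, Aurkb, Kif20a and Foxm1. Each run below covers 200 bases before and 30 bases from the start, 5′ to 3′ in the direction of transcription, with motif matches in capitals.
Mki67 (chr7:135716350-135716579, minus strand): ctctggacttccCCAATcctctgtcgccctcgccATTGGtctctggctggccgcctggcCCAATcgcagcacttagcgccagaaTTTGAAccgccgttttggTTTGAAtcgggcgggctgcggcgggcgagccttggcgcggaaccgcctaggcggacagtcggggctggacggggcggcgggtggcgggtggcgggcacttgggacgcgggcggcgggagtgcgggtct
Top2a (chr11:99024160-99024389, minus strand): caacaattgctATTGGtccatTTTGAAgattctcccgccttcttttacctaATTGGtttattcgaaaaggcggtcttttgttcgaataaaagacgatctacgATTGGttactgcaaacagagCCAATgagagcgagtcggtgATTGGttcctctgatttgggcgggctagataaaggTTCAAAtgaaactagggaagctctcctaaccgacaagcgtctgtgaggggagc
Cdk1 (chr10:69352883-69353112, minus strand): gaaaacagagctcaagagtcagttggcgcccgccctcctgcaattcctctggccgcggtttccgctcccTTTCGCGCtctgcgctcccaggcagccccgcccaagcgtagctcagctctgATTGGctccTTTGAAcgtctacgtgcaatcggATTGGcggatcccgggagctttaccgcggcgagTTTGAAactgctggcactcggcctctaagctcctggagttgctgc
Mcm5 (chr8:75109309-75109538, plus strand): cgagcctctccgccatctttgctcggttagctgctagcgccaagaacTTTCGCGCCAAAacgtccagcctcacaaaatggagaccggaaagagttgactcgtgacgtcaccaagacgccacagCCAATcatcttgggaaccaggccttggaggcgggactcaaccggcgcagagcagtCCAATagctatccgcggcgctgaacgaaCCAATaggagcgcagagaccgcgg
E2f8 (chr7:48881567-48881796, minus strand): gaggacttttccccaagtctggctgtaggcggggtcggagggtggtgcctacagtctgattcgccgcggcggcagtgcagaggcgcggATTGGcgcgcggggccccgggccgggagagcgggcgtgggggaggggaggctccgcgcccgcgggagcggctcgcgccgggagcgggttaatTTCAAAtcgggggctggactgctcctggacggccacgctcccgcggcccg

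Mki67 and Top2a each held 2 matches to TTTGAA and none to the E2F sites. Cdk1 held 2 matches to TTTGAA and 1 to TTTCGCGC. Mcm5 held no TTTGAA, and 2 E2F matches on opposite strands that overlap each other. E2f8 held 1 match to TTTGAA, 20 bases before the start, counted to the first base of the match. The letters TTTGAA were in the windows of 7 of 10 mitosis genes (70.0%), 1 of 12 replication genes (8.33%) and 2 of 9 cyclins, kinases and E2f1 (22.2%), against 20.2% of the 27025 genes in the table. E2F sites were in 5 of 12 replication genes (41.7%), 1 of 9 cyclins and kinases and none of 10 mitosis genes, against 0.929% of all genes. CCAAT was in 9 of 10 mitosis genes and 8 of 12 replication genes, against 41.1% of all genes. Kif11, the mitosis gene with a positive log2 fold change, held TTTGAA as well, and Birc5 did not. A match describes these letters only and is not evidence of a bound site.

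Reads shared with other genes may limit some values. Of the 40 members, 11 overlap the span, introns included, of another coding gene with reads, among them Ccna2 with Exosc9 and Gins2 with Gse1. A pseudogene that carries their name exists for 4 (Ccnd3, Ccnb1, Ccnb2 and Pcna). The log2 fold changes of Exosc9 (0.12) and Gse1 (0.35) had the opposite sign to those of Ccna2 and Gins2. Whether any reads were shared was not tested.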

How the data were processed

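Polyadenylated liver RNA was sequenced as paired reads from TruSeq v2 libraries, which do not mark strand, per the labels' protocols. The deposited files hold whole-number read counts per Ensembl gene, 1 library per file, not normalised. Per the submitters' processing notes, the authors used TopHat2 2.1.1, HTSeq 0.6.0 and the build mm10. Their annotation release and counting settings are not stated in those notes.

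Symbols and positions come from GENCODE M21, which matched 35533 of 37315 identifiers. KO was compared with WT across all genes with edgeR 4.0.16 in R 4.3.3: filterByExpr (minimum count 10, total 15) kept 13836 genes, followed by TMM scaling and a robust quasi-likelihood test, two-sided, of genotype alone, with Benjamini-Hochberg adjustment and a threshold of 0.05. Standard errors are absolute log2 fold changes over the root of the F statistic. Alternatives were other scalings, no filter, DESeq2 1.42.0, limma-voom (limma 3.58.1), each library left out and a replicate term. A fit with a library left out has a single library in its genotype, which cannot show the spread there. For single genes only the log2 fold changes of such fits are given. No 2 libraries agreed within sampling noise (chi-square per degree of freedom at least 86.5). The procedure was tested on simulated data. Only genes above a level that most mitosis genes do not reach were changed there, so that test does not cover them.

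The members, lists and tests were chosen with earlier results of these data known. Values per library are given for members with an unadjusted p under 0.05, and for the 4 most abundant members and the 4 of smallest p in each role; of the other lists, called genes and up to 4 of smallest p are named, except 1 gene that is not reported here. The cell type markers named other than Ly6g, Exosc9, Gse1 and Gm2788, further members of small count, and Cdk6, E2f1 and Kif20a are named outside this rule. They were named after their values were seen. Intervals and floors cover counting error only. Motif matches were searched as exact letters.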

Additional observations from a re-analysis of the deposited data

How the results depend on the processing

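The number of genes called was 264 and came to 176 with library size alone, 257 with limma-voom, 829 with no filter, 574 with the DESeq2 test and 460 to 633 without single libraries. Members called were 1 in the fit as reported, 0 with library size alone and with limma-voom, 2 with no filter (Mki67 and Gins2) and 1 to 3 without single libraries. For mitosis genes the count was 0 with library size alone and with limma-voom. For replication genes it was 1 with no filter and 0 to 2 without single libraries, and for cyclins and kinases 0 to 1. Other pathway genes called were 2, against 5 with DESeq2, 1 with library size alone, 6 with no filter and 2 to 6 without single libraries.

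A replicate block gave 2729 calls in all, 7 members (3 cyclins and kinases, Cdk4, E2f1 and Ccna2; 2 replication genes, Mcm5 and Gins2; 2 mitosis genes, Mki67 and Top2a) and 19 other pathway genes. Deviations of same-numbered libraries from their group means correlated with r = 0.43 across genes, and no label ties a number to an animal or batch. The 5 adipocyte markers summed to 0.497 and 6.42 CPM in KO and 3.44 and 10.2 CPM in WT. Their sum was thus higher in replicate 2 of both genotypes, and the source of this was not tested.

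The median log2 fold change of tested cyclins and kinases was -0.20. It was -0.22 with DESeq2 size factors or the DESeq2 test (-0.2160 and -0.2159), -0.18 with library size alone, -0.31 with no filter and -0.289 to -0.036 without single libraries. The replication median of -0.22 ranged from -0.304 to -0.0944 without single libraries. Signs changed only without single libraries, for Ccnd1 (-0.22 to 0.62), Ccnd2 (-0.34 to 0.54), Cdk6 (-1.55 to 0.33), Ccne1 (-0.15 to 0.68), Mcm4 (-0.304 to 0.0306), Rrm2 (-0.0838 to 0.18), Cenpe (-1.53 to 0.54) and Ccnc (-0.20 to 0.51), none of them called in the fit as reported. The cause of these changes was not tested. Tested mitosis genes had an SE of 0.355 or more, so small differences in them were not detectable at this depth.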
